A study of Mus musculus with 24 samples.

Results

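The Notch receptors, their ligands and their direct target genes were followed in the ventral and dorsal spinal roots of the mouse from birth to 5 weeks. The 10 genes were the receptors Notch1, Notch2, Notch3 and Notch4, the ligands Jag1, Jag2, Dll1 and Dll4, and the target genes Hes1 and Hey1, out of 37074 gene names on the array. They were found by gene name among the gene probes (15 probes in all), and each gene was read through its probe with the highest mean in the deposited normalized table over the 24 arrays. The samples were roots of the lumbar segments L4 to L6 of C57BL/6 mice with no treatment or transgene, taken as efferent nerve (EN) fibres, which form the ventral root, or afferent nerve (AN) fibres, which form the dorsal root. Each kind was collected on the day of birth (P0) and at an age of 1, 3 or 5 weeks (written 1 W, 3 W and 5 W), in 3 replicates from independent experiments that pooled animals of both sexes, which gave 8 groups and 24 one-colour arrays. A dissected root holds axons with their Schwann cells, blood vessels, fibroblasts and macrophages, so that in every value below fewer cells of a type and less RNA per cell cannot be told apart.

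Notch signalling passes between touching cells. A ligand of the Jagged or Delta-like family on one cell binds a Notch receptor on its neighbour, the receptor is then cut by ADAM proteases and by gamma-secretase, and its freed intracellular part binds the DNA-binding protein RBPJ and switches on target genes such as those of the Hes and Hey families. In peripheral nerve the pathway is known for its roles in the formation of Schwann cells and their proliferation, and as a brake on myelination, while in blood vessels Dll4 and Notch4 act in endothelial cells and Notch3 in mural cells, the pericytes and smooth muscle cells around them.

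Promoters in the RefSeq table (build GRCm38.p6, 250 bases before to 50 bases after each start, 300 in all) were matched for 8 of the 10 genes, with 9 promoters because Dll1 had 2, and Hes1 and Hey1 had no entry. The results below turn on Dll4 and Notch4, the ligand and the receptor known from endothelial cells, which rose in EN by 5 W. They also turn on Hes5 and Hey2, a pair of further target genes whose signals differed between the roots. The promoters of these genes are shown in that order. The first lies at chr2:119325534-119325833 (+), the next at chr17:34564045-34564344 (+), the Hes5 promoter at chr4:154960673-154960972 (+) and the Hey2 promoter at chr10:30842734-30843033 (-). Capitals mark an N box in Dll4 (a match to CACNAG, bound by Hes proteins, starting 75 bases before the start site), an E box in Notch4 (CANNTG, 158 bases before it) and, in Hes5 and Hey2, the RBPJ motif GTGGGAA or its complement.
Dll4: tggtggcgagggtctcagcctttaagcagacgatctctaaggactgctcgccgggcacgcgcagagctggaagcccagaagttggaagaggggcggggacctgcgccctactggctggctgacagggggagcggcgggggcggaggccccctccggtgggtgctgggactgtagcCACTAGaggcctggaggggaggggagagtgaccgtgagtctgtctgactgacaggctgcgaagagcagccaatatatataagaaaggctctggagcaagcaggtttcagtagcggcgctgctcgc
Notch4: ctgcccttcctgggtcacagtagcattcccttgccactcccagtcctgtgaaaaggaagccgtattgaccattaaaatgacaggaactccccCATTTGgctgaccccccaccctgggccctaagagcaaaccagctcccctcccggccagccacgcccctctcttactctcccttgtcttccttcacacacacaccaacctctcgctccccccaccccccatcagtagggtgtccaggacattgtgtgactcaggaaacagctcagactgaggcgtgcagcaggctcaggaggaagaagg
Hes5: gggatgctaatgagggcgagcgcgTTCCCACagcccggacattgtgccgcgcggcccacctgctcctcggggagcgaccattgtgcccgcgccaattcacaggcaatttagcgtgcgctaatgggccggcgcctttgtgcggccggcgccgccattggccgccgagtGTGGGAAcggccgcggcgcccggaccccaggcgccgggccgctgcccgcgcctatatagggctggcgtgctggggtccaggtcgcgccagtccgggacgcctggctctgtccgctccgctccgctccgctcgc
Hey2: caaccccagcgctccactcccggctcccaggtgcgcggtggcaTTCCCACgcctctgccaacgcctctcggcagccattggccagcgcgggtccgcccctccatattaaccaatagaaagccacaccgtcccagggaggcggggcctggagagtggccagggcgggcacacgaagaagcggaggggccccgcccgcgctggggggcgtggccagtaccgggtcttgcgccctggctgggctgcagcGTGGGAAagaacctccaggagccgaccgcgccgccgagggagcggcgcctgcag
On either strand, GTGGGAA was found in 0 of the 9 promoters of the 8 genes, against 6.38% of all 32851 promoters in the table, and its core TGGGAA in 0 of 9, against 25.6%. Among 6 promoters of 5 other target genes, 3 held GTGGGAA, those of Hes5, Hey2 and Hes7. CANNTG was found in 4 of the 9 promoters (72.3% of all) and CACNAG in 5 (42.5% of all). These are matches of letters in a short window and were not tested against binding.

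Signals were log2 values after quantile normalization, so each value compares 1 probe between arrays and not 1 gene with another. Probe positions are those of the array files on mm9, and whether each lies in coding or untranslated sequence was not looked up. A probe counted as well above background by the scanner software's own flag, and 7 of the 10 probes did so on all 24 arrays. The exceptions were Dll4 (22 arrays), Hes1 (23 arrays) and Dll1 (12 arrays). The labelled tissue was checked by marker lists: the mean of 7 sensory neuron markers lay at 11.61 to 12.33 in EN and 11.64 to 13.35 in AN at P0, where the roots overlapped, and at 6.97 to 8.72 in EN and 12.7 to 13.1 in AN at 1 W, where all 7 were called higher in AN. At 3 W it lay at 6.82 to 7.75 in EN and 8.96 to 14.2 in AN, with 2 of the 7 called higher in AN. At 5 W it lay at 7.127 to 7.798 in EN and at 10.86, 9.675 and 6.697 in AN, with 1 called. AN replicate 3 at 5 W thus lay below every EN array of that stage, so the list did not separate the roots there. The motor neuron list did not mark EN: of its 5 tested markers, 2 were called higher in AN at 1 W (pair differences of the list mean 2.03, 1.81 and 1.18), and Mnx1, a motor neuron nuclear factor, was not above background on any array. Prph stands in both lists. Array AN replicate 3 at 3 W stood apart from its group, with a sensory neuron list mean of 14.2 against 9.27 and 8.96 in the other two and with the lowest array weight of all 24 (0.226). Results of the 10 genes at 3 W are therefore given with and without it where they rest on it. The arrays lay on 4 slides, with AN and EN of the same number always on 1 slide. All 6 arrays at 3 W lay on the fourth slide, which otherwise held only the 5 W pair 3, so that an effect of that slide and the change at 3 W were separated by that pair alone.

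Differences were tested with limma on all 36409 probes above background in at least 1 group, and a change was called at a Benjamini-Hochberg adjusted p below 0.05 over all of them. In EN, 3 of the 10 genes were called between P0 and 1 W (27.1% of all tested probes were), 6 between P0 and 3 W (55.1%) and 4 between P0 and 5 W (54.3%). In AN the counts were 1 at 1 W (21.7%), 4 at 3 W (51.9%) and 3 at 5 W (50.7%). Between 3 W and 5 W, limma called 0 genes in EN (2.26%), where 3 had an unadjusted p below 0.05 (Notch1, Notch4 and Hey1), and 1 in AN (3.72%). For all probes the share at that unadjusted threshold was not counted. By the adjusted calls, the share of these genes that moved with age was near that of the array as a whole. Notch2 rose in both roots, Notch4 rose in both roots by 5 W, Dll4 rose in EN, and Jag1 fell in both roots. Dll1 fell in both roots by 3 W. The median log2 change of the 10 genes from P0 to 1 W, 3 W and 5 W was 0.24, 0.49 and -0.012 in EN (0.07, 0.045 and 0.045 for all tested probes), and -0.053, 0.13 and 0.061 in AN (0.023, 0.015 and 0.027).

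**Figure D1:**
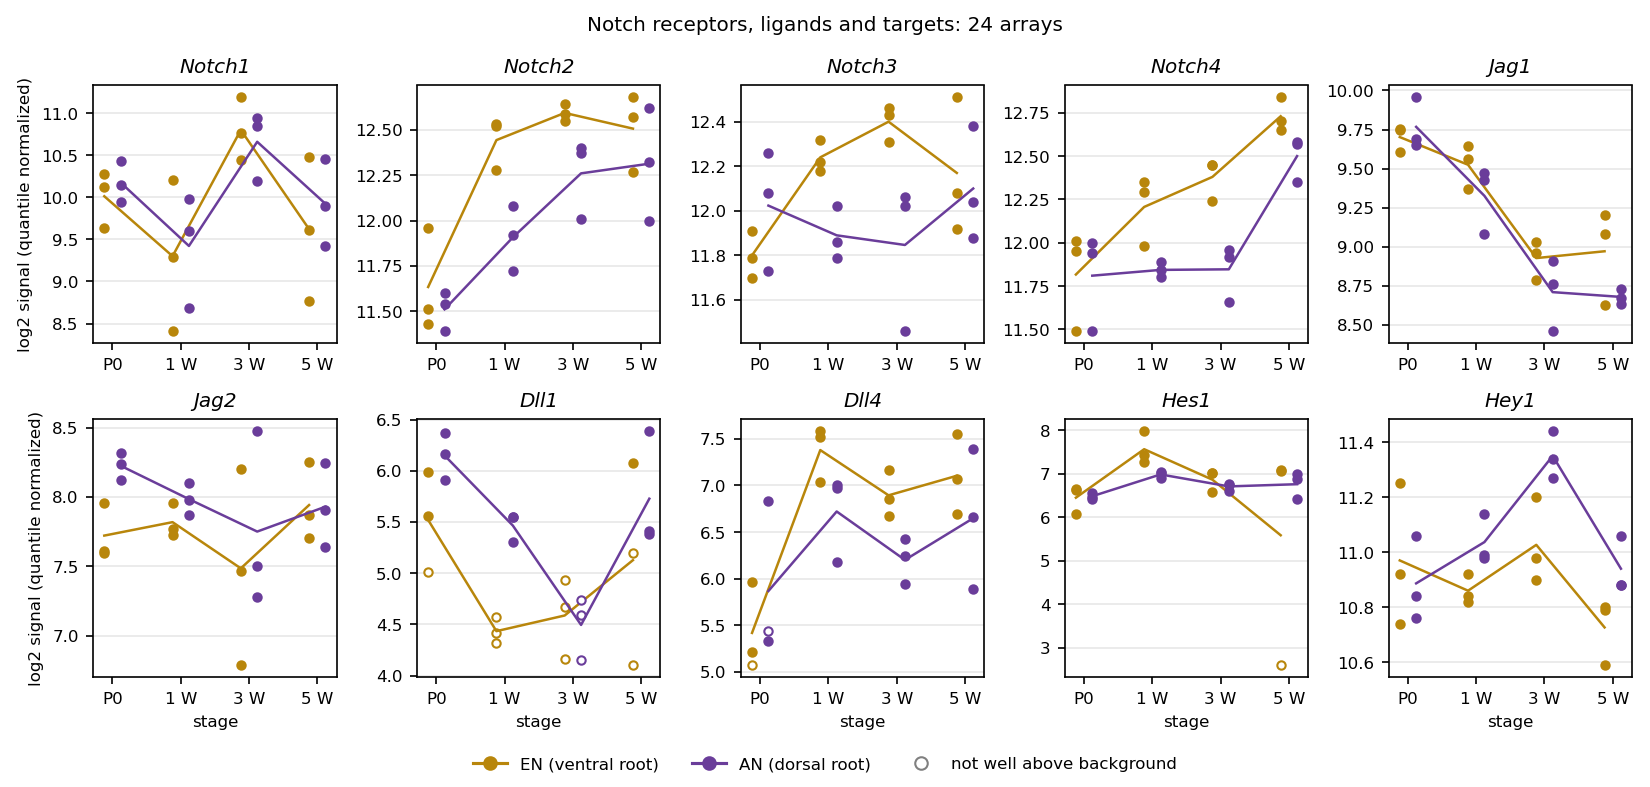
Log2 signal of the 10 genes on each array (vertical axes, quantile normalized, 1 panel per gene) in EN and AN, from P0 on the left to 5 W on the right, with 3 arrays per group. Lines join group means, each panel has its own axis, and open points were not well above background. Dll4 in EN lay at 5.07 to 5.97 at P0 and at 6.67 to 7.58 on all later arrays, and Jag1 fell in both roots.

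Among the receptors, Notch2 (probe at chr3:97953914-97953973, + strand), which is widely expressed, rose in both roots. In EN its 3 arrays read 11.96, 11.43 and 11.51 at P0, then 12.53, 12.52 and 12.28 at 1 W, 12.55, 12.64 and 12.59 at 3 W, and 12.57, 12.27 and 12.68 at 5 W. In AN they read 11.60, 11.39 and 11.54 at P0, 11.92, 12.08 and 11.72 at 1 W, 12.37, 12.40 and 12.01 at 3 W, and 12.32, 12.00 and 12.62 at 5 W. All P0 arrays of a root lay below all of its later arrays. The EN change from P0 was 0.81 ± 0.17 (SE) at 1 W (1.76-fold, limma adjusted p = 0.00183), 0.96 at 3 W (1.95-fold, adjusted p = 0.000121) and 0.88 at 5 W (1.84-fold, adjusted p = 0.000278). In AN it was 0.40 at 1 W and was not called (limma adjusted p = 0.109), then 0.75 at 3 W (1.68-fold, adjusted p = 0.00136) and 0.80 at 5 W (1.74-fold, adjusted p = 0.000695). With slide as a block the EN changes stayed called at 0.71, 0.54 and 0.69, and the AN change at 3 W was 0.32 (limma adjusted p = 0.133). A dimmer second Notch2 probe, made to a different transcript, was above background on 7 arrays in all, of which 1 was an AN array at P0 and 0 were AN arrays at 3 W, so no direction can be read from it there.

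Notch4 (probe at chr17:34725384-34725442, + strand), a receptor best known from endothelial cells, rose later. Its EN arrays read 11.95, 12.01 and 11.49 at P0, 12.35, 12.29 and 11.98 at 1 W, 12.45, 12.24 and 12.45 at 3 W and 12.84, 12.70 and 12.65 at 5 W. Its AN arrays read 11.94, 12.00 and 11.49 at P0, 11.84, 11.89 and 11.80 at 1 W, 11.92, 11.96 and 11.66 at 3 W and 12.58, 12.35 and 12.57 at 5 W. In both roots the 5 W arrays stood above all arrays at the other stages, and in AN the first 3 stages overlapped. The EN change was 0.39 at 1 W (limma adjusted p = 0.075), 0.56 ± 0.16 (SE) at 3 W (adjusted p = 0.00553) and 0.91 at 5 W (1.88-fold, adjusted p = 7.68e-05). With slide as a block the 3 W value was 0.55 (limma adjusted p = 0.0576) and the 5 W value 0.89 (adjusted p = 0.000295). In AN the change at 5 W was 0.69 (1.61-fold, limma adjusted p = 0.00124), of which 0.65 came between 3 W and 5 W (adjusted p = 0.0245). That last step was not called with slide as a block (limma adjusted p = 0.0517) or without AN replicate 3 at 3 W (0.56, adjusted p = 0.0882), and it was also lost without AN replicate 1 at 5 W. Within the fourth slide, replicate 3 at 5 W was higher than the mean at 3 W by 0.27 in EN and 0.72 in AN. The other Notch4 probes were above background on 4 and 1 arrays and were not tested. The probe above background on 4 arrays was made to the same transcript as the chosen probe. Its mean over the arrays was 3.74 against 12.14 for the chosen probe, and the reason for that gap was not tested.

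Notch3 (probe at chr17:32257888-32257947, - strand), the receptor of mural cells, was called in EN at 3 W. Its EN arrays read 11.79, 11.91 and 11.70 at P0, 12.18, 12.22 and 12.32 at 1 W, 12.46, 12.31 and 12.43 at 3 W and 12.08, 11.92 and 12.51 at 5 W. Its AN arrays read 11.73, 12.08 and 12.26 at P0, 12.02, 11.86 and 11.79 at 1 W, 12.06, 12.02 and 11.46 at 3 W and 11.88, 12.04 and 12.38 at 5 W. In EN every P0 array lay below every later one, while in AN the 4 stages overlapped. The EN change at 3 W was 0.60 ± 0.18 (SE; 1.51-fold, limma adjusted p = 0.00949), and with slide as a block it was 0.12 (adjusted p = 0.701). The EN changes at 1 W (0.44, limma adjusted p = 0.0826) and 5 W (0.37, adjusted p = 0.0934) were not called. With slide as a block, that at 1 W was called (0.45, limma adjusted p = 0.0367), as was a fall in AN from P0 to 3 W (-0.65, adjusted p = 0.0342, against -0.18 without the block). That fall includes AN replicate 3 at 3 W, the lowest of its group (11.46). Without that array the unblocked AN change was 0.015 (limma adjusted p = 0.951), and the blocked change is not given without it. Within the first and the third slide, Notch3 in EN was 0.39 and 0.51 higher at 1 W than at P0.

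Notch1 (probe at chr2:26319440-26319499, - strand), which in Schwann cell precursors is the receptor best studied, varied with the slide. Its EN arrays read 10.28, 10.12 and 9.64 at P0, 9.29, 8.41 and 10.20 at 1 W, 10.77, 11.19 and 10.44 at 3 W and 8.77, 9.61 and 10.48 at 5 W. Its AN arrays read 10.43, 9.95 and 10.15 at P0, 9.98, 8.69 and 9.59 at 1 W, 10.94, 10.85 and 10.19 at 3 W and 9.42, 9.90 and 10.45 at 5 W. The 4 arrays of the second slide lay at 8.41 to 9.42 whatever their stage or root, and the 8 arrays of the fourth slide at 10.19 to 11.19. The rise from 1 W to 3 W was called in EN (1.50 ± 0.45 SE, limma adjusted p = 0.0188, with 27.5% of probes called) and AN (1.24, adjusted p = 0.0446, with 30.0%). With slide as a block it was 0.67 in EN (limma adjusted p = 0.283) and 0.41 in AN (adjusted p = 0.509). The EN call was lost without EN replicate 1 or 2 at 1 W or EN replicate 2 at 3 W, and the AN call was lost on leaving out any of 11 of the 24 arrays. No change of Notch1 from P0 was called in either root. The other Notch1 probe, above background on 11 arrays, was not tested.

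**Figure D2:**
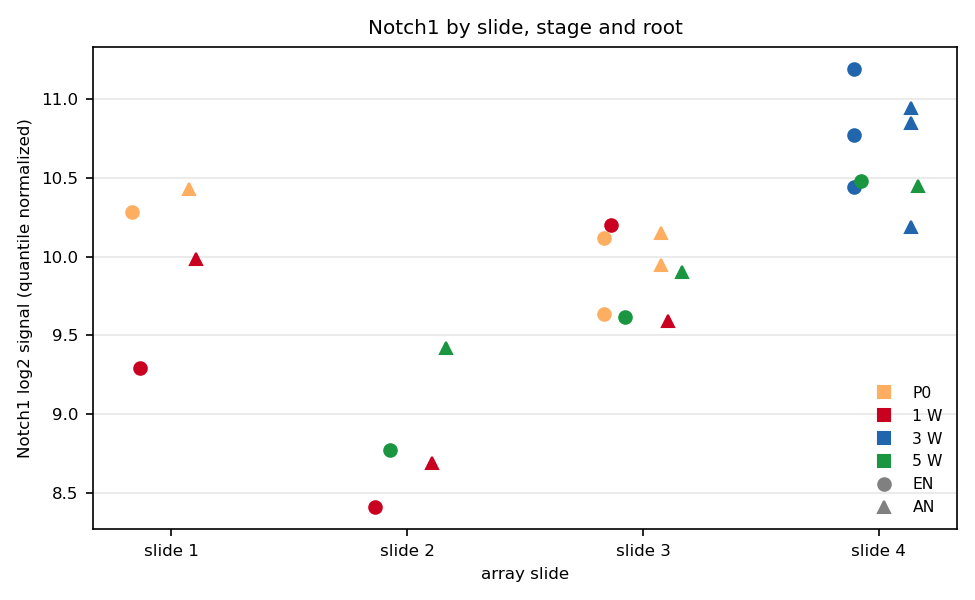
Log2 signal of Notch1 on the 24 arrays (vertical axis), grouped by the slide that carried each array (horizontal axis), with stage and root marked. The second slide lay at 8.41 to 9.42 and the fourth, which carried every 3 W array, at 10.19 to 11.19.

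Of the ligands, Dll4 (probe at chr2:119160779-119160838, + strand), the Delta-like ligand of sprouting vessels, showed the largest called log2 change of the 10 genes. In EN its arrays read 5.97, 5.21 and 5.07 at P0, then 7.52, 7.58 and 7.03 at 1 W, 6.67, 6.85 and 7.16 at 3 W and 7.07, 6.69 and 7.55 at 5 W. In AN they read 6.84, 5.33 and 5.44 at P0, 6.97, 7.00 and 6.18 at 1 W, 5.94, 6.42 and 6.24 at 3 W and 6.67, 5.88 and 7.40 at 5 W. Replicate 3 at P0 was not well above background in either root. The EN groups at P0 and later did not overlap, whereas in AN replicate 1 at P0 lay among the later arrays. The EN change was 1.96 ± 0.40 (SE) at 1 W (3.89-fold, limma adjusted p = 0.00139), 1.48 at 3 W (2.78-fold, adjusted p = 0.00448) and 1.69 at 5 W (3.22-fold, adjusted p = 0.00157). Within the first and the third slide the rise at 1 W was 1.56 and 1.89. With slide as a block the change at 3 W was 0.52 (limma adjusted p = 0.152) and that at 5 W was 1.33 (adjusted p = 7.05e-05). In AN the changes were 0.85 at 1 W (limma adjusted p = 0.141), 0.33 at 3 W (adjusted p = 0.505) and 0.78 at 5 W (adjusted p = 0.112). Without AN replicate 1 at P0 the AN changes at 1 W (1.34, limma adjusted p = 0.0195) and 5 W (1.27, adjusted p = 0.0107) were called, and the latter was also called without AN replicate 2 at 5 W. A slide block made the AN change a call at 1 W (0.62, limma adjusted p = 0.0249), and at 3 W its sign turned (-0.62, adjusted p = 0.0915). Under that block the step from 1 W to 3 W was called in EN (-1.20, limma adjusted p = 0.00695, against -0.49 without it) and AN (-1.24, adjusted p = 0.00488, against -0.52), as was the step up from 3 W to 5 W in EN (0.81, adjusted p = 0.04995) and AN (1.05, adjusted p = 0.0179).

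Jag1 (probe at chr2:136907433-136907492, - strand), a Jagged ligand that many cell types make, fell in both roots. The EN arrays read 9.75, 9.61 and 9.74 at P0, 9.37, 9.56 and 9.65 at 1 W, 8.96, 9.03 and 8.79 at 3 W and 9.20, 9.08 and 8.63 at 5 W. The AN arrays read 9.69, 9.65 and 9.96 at P0, 9.08, 9.43 and 9.47 at 1 W, 8.46, 8.76 and 8.91 at 3 W and 8.73, 8.67 and 8.63 at 5 W. The arrays at 3 W and 5 W lay below all those at P0 and 1 W in each root. Jag1 in EN fell by 0.78 at 3 W (1.71-fold lower, limma adjusted p = 0.000379) and by 0.73 at 5 W (1.66-fold lower, adjusted p = 0.000594). In AN it fell by 1.06 ± 0.15 (SE) at 3 W (2.08-fold lower, limma adjusted p = 1.71e-05) and by 1.09 at 5 W (2.13-fold lower, adjusted p = 1.04e-05). All 4 of these calls held with slide as a block. The earlier step in AN, of -0.44 at 1 W, was called at a limma adjusted p of 0.0485 but not with same-numbered AN and EN arrays as pairs (adjusted p = 0.0717), and it was lost on leaving out any of 19 of the 24 arrays. The step from 1 W to 3 W was -0.60 in EN (limma adjusted p = 0.00802) and -0.62 in AN (adjusted p = 0.00588), and with slide as a block -0.37 (adjusted p = 0.224) and -0.39 (adjusted p = 0.177).

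Beside this fall, the 6 markers of dividing cells fell in both roots from P0 to 5 W, with the list mean going from 12.4 to 8.32 in EN and, in AN, from 13.1 to 8.54, and 5 of 6 immature Schwann cell markers in EN and 4 of 6 in AN were called lower. Their part in the fall of Jag1 was not tested.

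Dll1 (probe at chr17:15504623-15504682, - strand), the Delta-like ligand of neural progenitors, lay near the detection limit. In EN its arrays read 5.99, 5.55 and 5.01 at P0, 4.32, 4.41 and 4.57 at 1 W, 4.67, 4.16 and 4.93 at 3 W and 6.08, 4.10 and 5.20 at 5 W, and of these the first pair at P0 and the first at 5 W were well above background. In AN they read 6.37, 5.91 and 6.17 at P0, 5.55, 5.55 and 5.30 at 1 W, 4.59, 4.16 and 4.74 at 3 W and 6.39, 5.41 and 5.39 at 5 W, all above background except those at 3 W. No EN array at 1 W or 3 W and no AN array at 3 W measured the gene, so the folds there are bounds, computed as the bright group's mean against the higher of each dim array's own signal and its lowest signal well above background. At P0 the signal was at least 2.71-fold higher than at 3 W in AN (limma adjusted p = 0.00124). In EN the same computation gave 1.56-fold for P0 over 1 W and over 3 W (limma adjusted p = 0.0389 and 0.0429). That EN value is no lower bound, since the P0 mean included replicate 3 (5.01), which was not above background. The EN call at 3 W was lost with slide as a block (limma adjusted p = 0.116). The EN call at 1 W was lost without EN replicate 1 or 2 at P0 or any 1 of the EN arrays at 1 W, and that at 3 W without EN replicate 1 or 2 at P0, EN or AN replicate 2 at 1 W, or EN replicate 1 or 2 at 3 W. In AN the 5 W signal was at least 2.02-fold that at 3 W, a step that was not called (limma adjusted p = 0.0763). Under a slide block the AN change from P0 to 1 W was called (-0.95, limma adjusted p = 0.0417, against -0.68 and an adjusted p of 0.216 without it).

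Jag2 (probe at chr12:114146887-114146946, - strand), the second Jagged ligand, had no called change. Its EN arrays spanned 7.59 to 7.96 at P0, 7.73 to 7.96 at 1 W, 6.79 to 8.20 at 3 W and 7.70 to 8.25 at 5 W, and its AN arrays 8.12 to 8.31, 7.87 to 8.10, 7.28 to 8.47 and 7.64 to 8.24. The widest groups were those at 3 W, where replicate 3 was the highest in each root. In AN the change from P0 to 3 W was -0.47 (limma adjusted p = 0.192), and without AN replicate 3 at 3 W it was -0.84 (adjusted p = 0.0192).

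The targets Hes1 and Hey1 are transcriptional repressors that Notch switches on. Hes1 (probe at chr16:30067820-30067879, + strand) in EN read 6.64, 6.62 and 6.09 at P0, 7.43, 7.28 and 7.98 at 1 W, 7.00, 6.57 and 7.01 at 3 W and 7.09, 7.07 and 2.61 at 5 W. In AN it read 6.47, 6.57 and 6.42 at P0, 7.02, 6.89 and 7.04 at 1 W, 6.77, 6.61 and 6.75 at 3 W and 6.88, 6.41 and 6.99 at 5 W. In each root the arrays at 1 W lay above all those at P0. EN replicate 3 at 5 W was more than 3 log2 units below all other arrays and not well above background, and with it limma without a block called no change of Hes1. When slide was a block and that array was in, the EN change from P0 to 3 W was 2.503 (limma adjusted p = 0.0415), against 0.41 without the block. Without that array, the EN rise at 1 W was 1.11 (limma adjusted p = 0.000438, against 0.272 with it), the later step from 1 W to 3 W was -0.70 (adjusted p = 0.0113) and the change from P0 to 5 W was 0.63 (adjusted p = 0.022). With it the last value was -0.86 (limma adjusted p = 0.326). Whether that low value is a fault of the spot was not tested. The AN rise at 1 W was 0.50 and was not called with the array (limma adjusted p = 0.683) or without it (adjusted p = 0.0707).

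Hey1 (probe at chr3:8663432-8663491, - strand) kept a narrow range. Its EN arrays read 11.25, 10.74 and 10.92 at P0, 10.84, 10.92 and 10.82 at 1 W, 11.20, 10.98 and 10.90 at 3 W and 10.80, 10.59 and 10.79 at 5 W. Its AN arrays read 11.06, 10.76 and 10.84 at P0, 10.99, 11.14 and 10.98 at 1 W, 11.34, 11.27 and 11.44 at 3 W and 11.06, 10.88 and 10.88 at 5 W. The AN arrays at 3 W stood above all others of that root. That rise was 0.46 ± 0.13 (SE; 1.38-fold, limma adjusted p = 0.00585), and 0.42 without AN replicate 3 (adjusted p = 0.0219). No EN change was called.

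**Figure D3:**
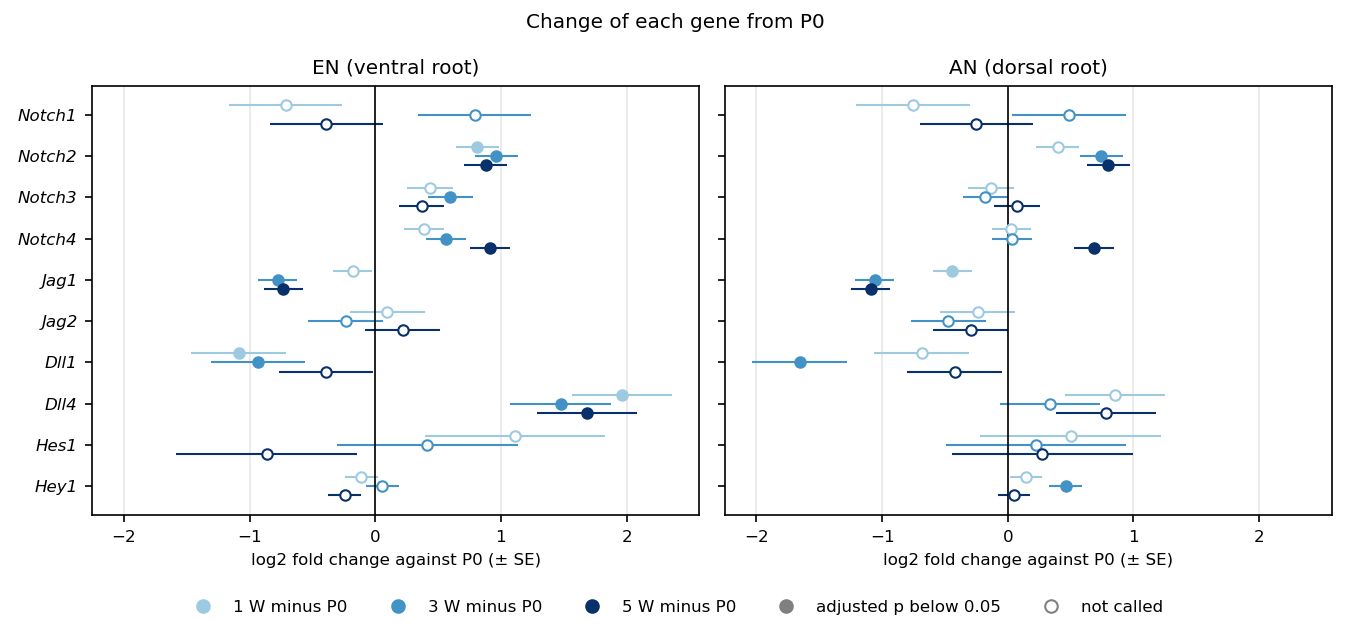
Log2 fold change from P0 (horizontal axis) with its SE for each of the 10 genes, by root and later stage, from limma on 24 arrays. Filled points had an adjusted p below 0.05, and the Dll1 values include groups below background. Dll4 in EN lay furthest right at 1 W (1.96), and Jag1 lay left of 0 in both roots at 3 W and 5 W.

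The study also set AN against EN at each stage. Without pairing, limma called 0 of the 10 genes at P0 (0.728% of all tested probes), 1 W (4.04%), 3 W (5.92%) and 5 W (6.82%), with 0, 4, 5 and 0 of them called in a fit that held same-numbered AN and EN arrays as pairs (3.87%, 11.1%, 21.3% and 23.8%). At an unadjusted p below 0.05, limma without pairing found 0 genes at P0, 3 at 1 W (Notch2, Notch4 and Dll1), 3 at 3 W (Notch3, Notch4 and Hey1) and 0 at 5 W. For all probes the share at that unadjusted threshold was not counted, so these counts have no array-wide rate beside them. Averaged over the 4 stages, 3 genes were called without pairing (19.6%) and 5 with it (39.4%). Notch2 and Notch4 were lower in AN, by averages of -0.30 ± 0.086 (SE; limma adjusted p = 0.0195) and -0.28 ± 0.078 (adjusted p = 0.0149), and the fitted Dll1 difference was 0.54 ± 0.19, higher in AN (adjusted p = 0.0499). That Dll1 average includes EN at 1 W and both roots at 3 W, where no array was above background, and EN at 5 W, where 1 of 3 was, so its size is no measured one. For Dll1, all 3 arrays of a group were above background only in AN (P0, 1 W and 5 W), so it was tested through AN alone. Its calls between the roots are therefore no independent evidence of a difference. The Notch2 and Notch4 calls held without AN replicate 3 at 3 W (limma adjusted p = 0.0344 and 0.0265). The second Notch2 probe was above background on 1 of 12 EN arrays and 6 of 12 AN arrays, and its average fitted difference of 0.91 (limma adjusted p = 0.0479) is no measured size. That probe, too, was tested through AN alone (1 W). The Dll1 call was lost on leaving out any of 18 of the 24 arrays. With pairing, Dll4 (-0.34, limma adjusted p = 0.00801) and Hey1 (0.16, adjusted p = 0.015) were called as well. Averaged over stages, the median of the 10 genes was -0.025, beside -0.028 for all tested probes.

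The pairs showed where these differences lay. After P0 there were 9 pairs, and Notch2, Notch4 and Dll4 were lower in AN in 9 of 9, Notch3 in 8, and Jag1 and Hes1 in 7. Hey1 was higher in AN in 9 of 9, Dll1 in 6, and Notch1 and Jag2 in 5 each. At 1 W the paired fit called Notch2 (-0.53, limma adjusted p = 0.0112), Notch4 (-0.36, adjusted p = 0.0485), Dll4 (-0.66, adjusted p = 0.0293) and Dll1. For Dll1 no EN array at 1 W was above background, so AN was at least 1.50-fold higher (limma adjusted p = 0.0165). Since the Dll1 probe was tested through AN groups alone, this call has the limit given above. On leaving out each of the 12 pairs, Notch4 stayed called at 1 W in 3, Notch2 and Dll4 in 9 and Dll1 in 10. When slide was a block, Notch4 (limma adjusted p = 0.16) and Dll1 (adjusted p = 0.0661) were not called at 1 W. The pairing itself was least certain at 3 W. There the paired fit called Notch2 (-0.34, limma adjusted p = 0.0399), Notch3 (-0.55, adjusted p = 0.0283), Notch4 (-0.53, adjusted p = 0.00681), Dll4 (-0.69, adjusted p = 0.0149) and Hey1 (0.32, adjusted p = 0.0251). On leaving out each pair, Notch2 stayed called in 3 of 12, Notch3, Dll4 and Hey1 in 10 and Notch4 in 12. Without pair 3 at 3 W, only Notch4 of these stayed called (-0.40, limma adjusted p = 0.0327). The others were then Notch2 at -0.22 (limma adjusted p = 0.194), Notch3 at -0.35 (adjusted p = 0.153), Dll4 at -0.58 (adjusted p = 0.0789) and Hey1 at 0.22 (adjusted p = 0.114).

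**Figure D4:**
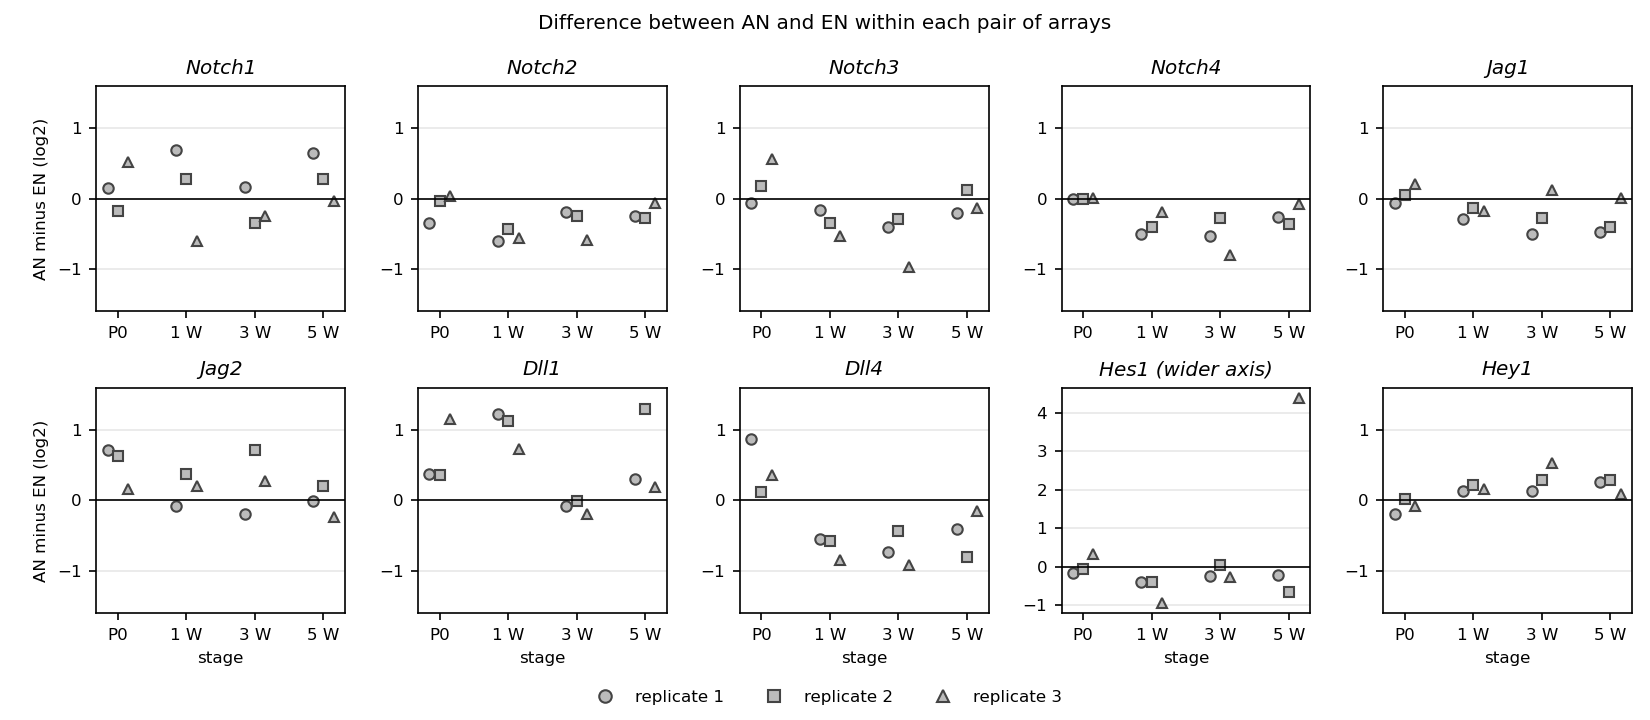
AN minus EN log2 signal of each same-numbered pair (vertical axis) for the 10 genes at the 4 stages, with 3 pairs per stage, a line at 0 and a wider axis for Hes1. After P0 all 9 pairs of Notch2, Notch4 and Dll4 lay below 0 and all 9 of Hey1 above it.

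The Dll4 pair differences had one sign at P0 and the other later. At P0 Dll4 was higher in AN in 3 of 3 pairs (0.45 on average) and after P0 lower in AN in all 9. In pair 3 at P0 neither array was well above background, so no order of the roots can be read from it. The P0 average was -0.036 without AN replicate 1 when its EN partner was kept, and 0.24 without the whole of pair 1. The shift of that difference was -1.11 at 1 W, -1.14 at 3 W and -0.90 at 5 W, and without pairing none was called by limma (adjusted p = 0.771, 0.575 and 0.644). Without AN replicate 1 at P0, its EN partner kept, the shifts were -0.62, -0.66 and -0.42. Without the whole of pair 1 at P0 they were -0.90, -0.93 and -0.69. The unpaired fit called the shift of 0 of the 10 genes at each stage (0.0632%, 0.621% and 1.15% of all tested probes), and at an unadjusted p below 0.05 it found Notch3 at 1 W and Notch3, Notch4 and Hey1 at 3 W. The share of all probes at that unadjusted threshold was not counted. With pairs the Dll4 shift was called at 3 W (limma adjusted p = 0.0264) and 5 W (adjusted p = 0.0435), where 4.18% and 6.94% of probes were, but not at 1 W (adjusted p = 0.060, with 0.758%). On leaving out each of the 12 pairs in turn, the 3 W shift stayed called in 8 (lost without pair 1 or 3 at P0 or pair 1 or 3 at 3 W) and the 5 W shift in 3. Without pair 3 at 3 W, the limma adjusted p was 0.0582 for the 3 W shift and 0.030 for the 1 W shift. Under a slide block the 3 W shift was called (limma adjusted p = 0.0369) and the 5 W shift was not (adjusted p = 0.0732).

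Markers of other cell types also differed between the roots and stages. The 10 endothelial markers, which included Pecam1 and Cdh5 and were all well above background in every group, had array means of 11.07 to 11.27 in EN at P0, 11.62 to 11.76 at 1 W, 11.49 to 11.72 at 3 W and 11.56 to 11.76 at 5 W. In AN they had 11.44 to 11.90 at P0, 11.31 to 11.37 at 1 W, 10.80 to 11.25 at 3 W and 11.38 to 11.41 at 5 W. The pair differences, AN minus EN, of their mean were 0.21, 0.63 and 0.82 at P0, -0.31, -0.43 and -0.40 at 1 W, -0.49, -0.24 and -0.73 at 3 W and -0.17, -0.24 and -0.38 at 5 W. This sign pattern, above 0 in all 3 pairs at P0 and below 0 in all 9 later ones, was that of Dll4. For Dll4, pair 3 at P0 was not well above background in either root. By limma, 2 of the 10 markers were called higher in AN at P0, and 2, 4 and 1 lower at 1 W, 3 W and 5 W. Within EN, 6, 3 and 4 were called higher at 1 W, 3 W and 5 W than at P0, and 0, 2 and 2 lower. Dll4 in EN rose by 1.96, 1.48 and 1.69 over those steps. Within AN, 2, 6 and 4 were called lower at 1 W, 3 W and 5 W than at P0, and 0, 1 and 2 higher. Dll4 in AN changed by 0.85, 0.33 and 0.78 over those steps, none of them called, and Notch4 in AN rose by 0.69 at 5 W. Of the 10 mural markers, 2 were called lower in AN at 1 W and 2 at 3 W. Within EN, 5, 5 and 4 mural markers were called higher at 1 W, 3 W and 5 W than at P0, and 2, 3 and 4 lower. Of 8 macrophage markers, 5 were called lower in AN on average and 8 higher in EN at 1 W than at P0, and of 8 fibroblast markers 3, 3 and 4 were called lower in AN at 1 W, 3 W and 5 W. The list means of the mural, macrophage and fibroblast markers were each lower in AN in every pair after P0, and had both signs at P0. The part of any of these cell types in the Dll4, Notch3, Notch4 and Notch2 differences was not tested.

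**Figure D5:**
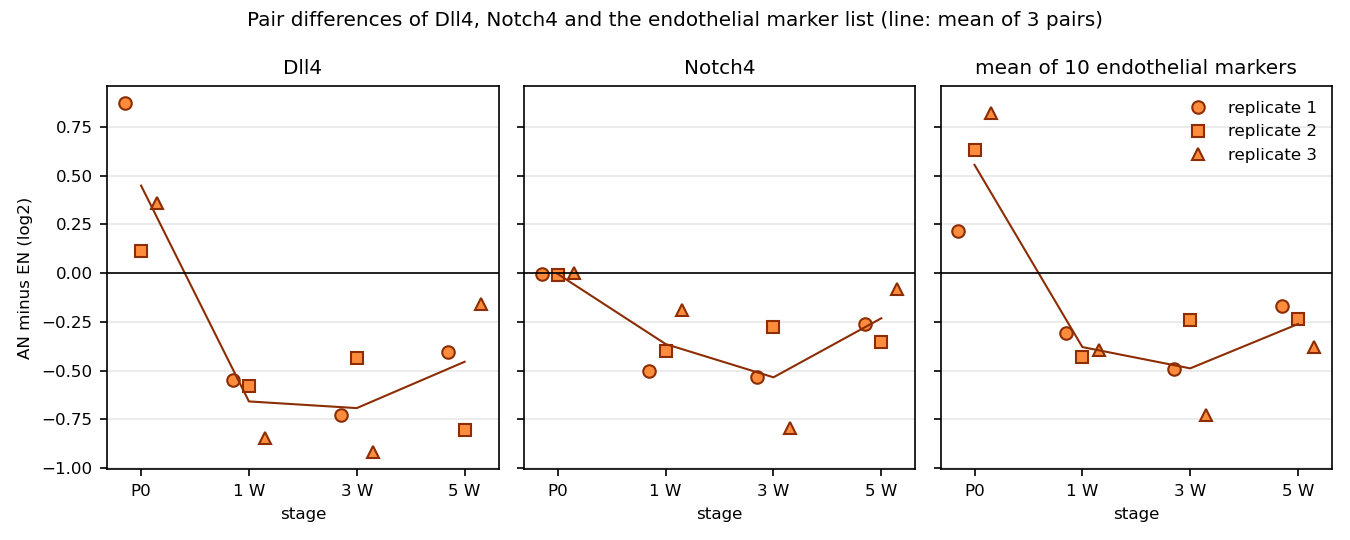
AN minus EN log2 signal of each pair (vertical axis) at the 4 stages for Dll4, for Notch4 and for the mean of 10 endothelial markers. All 3 pairs lay above 0 at P0 for Dll4 and the markers, and all 9 later pairs lay below 0 in each panel. Replicate 3 of Dll4 at P0 was not well above background in either root.

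The wider pathway was counted over 49 further genes, all above background in at least 1 group. From P0 to 5 W, 13 rose and 19 fell in EN (28.2% and 26.0% of all tested probes did), and 9 rose and 12 fell in AN (26.5% and 24.2%). Of the 10 genes for receptor cleavage, 5 rose and 2 fell in EN, and 3 rose and 1 fell in AN. Adam10, an ADAM protease that cuts the receptor after ligand binding, rose by 1.93 in EN and 1.79 in AN (limma adjusted p = 1.38e-09 and 3.48e-09). Aph1c, a gamma-secretase subunit, rose by 1.59 and 1.73. Among the 12 genes of the nuclear complex, 1 rose and 6 fell in EN, and 2 rose and 5 fell in AN, with Rbpj among those that fell in both. Kat2b, a histone acetyltransferase, rose by 1.19 and 1.62. Of the 12 ubiquitin ligases and endocytic regulators, 4 rose and 3 fell in EN and 3 rose and 1 fell in AN, where Itch, a ubiquitin ligase that acts on Notch, rose by 1.58 and 1.44. Of 5 sugar transferases, 1 rose and 1 fell in EN, and 1 rose and 0 fell in AN.

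The remaining target genes and the atypical ligands held the larger changes. Of 6 other targets, 2 rose and 4 fell in EN by 5 W, and 0 rose and 3 fell in AN. Nrarp, a feedback inhibitor, fell, by log2 changes of -2.48 in EN and -2.64 in AN (limma adjusted p = 0.00022 and 0.000128), where 2 of 3 arrays per root at 5 W were well above background. Hey2, a repressor of the same family as Hey1, fell in AN (-1.88), and in EN its fitted change was -1.70, with 1 of 3 arrays at 5 W well above background. Of the 4 other ligands, 3 fell in EN and 2 in AN. Dlk1, a non-canonical ligand, fell more in AN (-3.62) than in EN (-2.12), and its shift between the roots was called by limma at 3 W (-1.39, adjusted p = 0.0301) and 5 W (-1.50, adjusted p = 0.0131). Dll3, a ligand that does not activate receptors on neighbouring cells, was called lower in both roots at 5 W, when 1 of 3 EN arrays and 2 of 3 AN arrays were well above background, so the fitted sizes (-3.12 and -2.40) depend on dim spots.

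Between the roots, averaged over stages, 7 of the 49 genes were called higher in AN (9.10% of all tested probes) and 8 lower (10.5%). Hes5, a repressor that marks active Notch signalling in many neural cells, was higher in AN by 1.94 (limma adjusted p = 0.000328). Its EN arrays read 7.65, 8.93 and 7.96 at P0, 5.00, 6.49 and 7.27 at 1 W, 6.08, 5.71 and 5.89 at 3 W and 4.86, 6.18 and 5.47 at 5 W. Its AN arrays read 7.91, 9.58 and 8.31 at P0, 9.11, 8.09 and 9.19 at 1 W, 7.45, 8.04 and 9.06 at 3 W and 7.45, 9.49 and 7.04 at 5 W. The roots overlapped at P0 and did not overlap at any later stage, and limma called the difference at 1 W (2.54, adjusted p = 0.0311), 3 W (2.29, adjusted p = 0.0438) and 5 W (2.49, adjusted p = 0.0255). The 3 W value includes AN replicate 3, which stood apart from its group by its markers and was the highest for Hes5 (9.06). That difference is not given without it, while the other AN arrays (7.45 and 8.04) also lay above those of EN. Hey2 was higher in AN by 1.27 on average (limma adjusted p = 0.00197), with EN arrays of 4.16, 5.05 and 4.87 at 1 W against 6.90, 6.75 and 7.01 in AN, where EN replicates 1 and 3 were not well above background. At 3 W and at 5 W, EN replicates 2 and 3 were not either, so the Hey2 average is no measured size. Heyl, another Hey repressor, known from mural cells, was lower in AN by -0.44 (adjusted p = 0.00588).

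The other genes higher in AN were Dner (2.23), a ligand of neurons and glia, Bend6 (1.56), a corepressor of Notch targets, Dll3 (1.02), the ubiquitin ligase gene Neurl1b (0.30) and the corepressor gene Spen (0.28). The Dll3 average includes EN at 3 W, where no array was above background, and EN at 5 W, where 1 array was, so its size is no measured one. The others lower in AN were Dlk1 (-1.18), Adam10 (-0.34), the protease gene Adam17 (-0.34), the coactivator gene Maml2 (-0.29), the fucosyltransferase gene Pofut1 (-0.24), Itch (-0.20) and the gamma-secretase subunit gene Psenen (-0.18). Averaged over stages, all 7 sensory neuron markers were called higher in AN (median 2.59), as were 5 of 6 immature Schwann cell markers, 6 of 6 markers of dividing cells and 3 of 6 oligodendrocyte markers, while 3 of 6 astrocyte markers were higher and 3 lower. Their part in the Hes5 and Hey2 differences was not tested.

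Genes whose signal over the 24 arrays ran most like that of each receptor, ligand or target were found by Pearson correlation among 17619 genes, as a description, since the arrays share stages, slides and normalization. Dll4 ran most like Srd5a3 (r = 0.883), Trip12 (0.883) and Gm26705 (0.871). Notch4 ran most like Gtf3c1 (0.91), D630003M21Rik (0.905) and Tmem176a (0.901), and Notch2 most like Pex19 (0.968), Snhg18 (0.966) and 1700007L15Rik (0.962). For Notch3 they were Samd5 (0.785), Gabpb2 (0.77) and Slc2a10 (0.764). For Notch1 they were Treml2 (0.974), Gm33594 (0.903) and Gm12440 (0.873), and for Jag1 they were Asnsd1 (0.94), Arf4 (0.939) and Fbn2 (0.935). The closest to Jag2 were Ido2 (0.728), Clspn (0.725) and Akap17b (0.72), and to Dll1 they were Palld (0.804), Akirin2 (0.784) and Agap2 (0.748). Hes1 ran most like Zmym3 (0.955), Med18 (0.938) and Jkamp (0.937), and Hey1 like Cct5 (0.839), Kbtbd2 (0.823) and Carhsp1 (0.808). The Hes1 values include its single low array. Among the 10 genes themselves, r over the 24 arrays was 0.793 between Dll4 and Notch2, 0.709 between Notch4 and Notch2, 0.604 between Dll4 and Notch4 and -0.65 between Jag1 and Notch2.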

How the data were processed

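Total RNA of 24 root samples was read on 1-colour, Cyanine-3 Agilent mouse arrays. Each scanner file deposited by the authors holds signal intensity per spot, background-subtracted and detrended within the array by Agilent Feature Extraction 10.7.1.1 (per the labels), with 0 or 1 flags, and the table the authors deposited holds log2 values quantile normalized over the arrays in GeneSpring. Median signal was 45.4 to 191 over the arrays against a local background of 23 to 46, and 55.1% to 71.7% of spots were well above background, so precision is limited by the 3 arrays per group and, for dim probes, by a detection limit of 3.71 to 5.87 on the log2 scale.

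Outlier spots were left out, spots of a probe averaged, and the log2 processed signals of 56605 gene probes quantile normalized with limma 3.58.1 in R 4.3.3. For the 10 genes the result differed from the authors' log2 table by at most 0.065, and that table was an alternative. Of these probes, 36409 passed the filter, which asked for all 3 arrays of some group to be well above background, and were tested with lmFit and eBayes over 8 group means, after the script was tested on simulated data. Tables and figures were made in Python 3.11.15 with numpy 2.4.6, pandas 2.3.3 and matplotlib 3.10.9.

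Same-numbered AN and EN arrays deviated from their group means together (r = 0.106 to 0.665 over probes in the 12 pairs), so the numbers were taken to pair them. The pairing comes from this check and from their shared slides, since no source states it. It was least certain at 3 W, where r was 0.189, 0.106 and 0.215 for the same number and up to 0.118 for different numbers. All arrays at 3 W shared 1 slide, so the slide could not tell pairs apart there. For differences between the roots and their shifts, each pair entered a second fit as a fixed block. For changes between stages within a root, the pairs entered as a random block, with a within-pair correlation of 0.566.

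Named were the 10 genes, the pathway genes called in the stage-averaged AN minus EN contrast or called in both roots from P0 to 5 W with a fold above 2, and the 3 genes most correlated with each of the 10. The genes and lists were chosen with earlier results of these data known. Alternatives were another scaling, background correction, probe filter, block, weights and threshold, the second Notch2 probe, and each array left out. Leaving a pair out of the paired fit, and reporting Hes1 and the 3 W results without the array named, were chosen after seeing the data.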

Additional observations from a re-analysis of the deposited data

Results flagged for a closer look

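The difference between the roots in Dll4 had a different sign at P0 than at the later stages. AN minus EN was above 0 in 3 of 3 pairs at P0 and below 0 in 9 of 9 pairs afterwards. In pair 3 at P0 neither array was well above background, so no order of the roots can be read from it. The shift of the difference from P0 was -1.11 at 1 W, -1.14 at 3 W and -0.90 at 5 W. The paired limma fit called it at 3 W (adjusted p = 0.0264) and 5 W (adjusted p = 0.0435). Of the 12 fits that each left out a pair, 8 kept the 3 W call, which was lost without pair 3 at 3 W (adjusted p = 0.0582), and 3 kept the 5 W call, which was also lost with slide as a block (adjusted p = 0.0732). Without AN replicate 1 at P0, its EN partner kept, the shifts were -0.62, -0.66 and -0.42, and the P0 difference was -0.036. Without the whole of pair 1 at P0 the shifts were -0.90, -0.93 and -0.69, and the P0 difference was 0.24. At 1 W it was not called (adjusted p = 0.060), and there the opposite signs of all 3 pairs alone drew attention. The mean of 10 endothelial markers changed sign in the same pairs, and its part was not tested.

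Dll1 also changed sign, with AN above EN in 3 of 3 pairs at P0 and below it in 3 of 3 at 3 W, a shift of -0.72. Neither root was above background at 3 W, so no order of the roots can be read there, and limma did not call the shift.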

How the results depend on the processing

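The number of the 10 genes called in each of 18 comparisons was recounted under each alternative. The authors' log2 table, normexp background correction and the second Notch2 probe moved no count by over 1.5 times. Scaling by the 75th percentile took the AN count from P0 to 1 W from 1 to 0 and that from 3 W to 5 W from 1 to 0. No filter on dim probes gave 0 for AN from P0 to 1 W and 1 in place of 2 for AN from 1 W to 3 W. Requiring detection on all 24 arrays gave 1 in place of 0 for AN against EN at 3 W and 1 in place of 3 for EN from P0 to 1 W.

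With the replicate number as a block over all stages, AN against EN at 3 W gave 1, AN from P0 to 1 W 0, AN from 1 W to 3 W 4 and AN from 3 W to 5 W 3. With same-numbered pairs within a stage as a replicate block, AN against EN gave 4 at 1 W, 5 at 3 W and 5 on average, AN from P0 to 1 W gave 0, and the shifts at 3 W and 5 W gave 1 each. This pairing changed no other count of calls by over 1.5 times. With slide as a block, AN against EN gave 2 at 1 W, 5 at 3 W and 5 on average, EN from P0 to 3 W gave 3 in place of 6 (1 of them Hes1, with its low array in), AN from P0 to 1 W 3, the steps from 1 W to 3 W 1 each, EN from 3 W to 5 W 1 and the shift at 3 W 1.

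Fitting the compared groups alone gave 1 for AN against EN at 1 W, 5 for EN and 2 for AN from P0 to 1 W, 1 for AN from 1 W to 3 W and 0 for AN from 3 W to 5 W. Array weights gave 3 for AN against EN at 1 W and at 3 W, 5 for EN and 3 for AN from P0 to 1 W, 1 for EN and 2 for AN from 3 W to 5 W, and 5 for AN from 1 W to 3 W.

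An unadjusted p below 0.05 with a fold above 2 gave 1 for AN against EN at 1 W, 0 on average, 1 for EN from P0 to 3 W and to 5 W, 0, 2 and 1 for AN from P0 to 1 W, 3 W and 5 W, 1 each from 1 W to 3 W, and 1 for EN from 3 W to 5 W. An adjusted p below 0.05 with a fold above 2 gave 0 on average, 1 for EN from P0 to 3 W and to 5 W, 0, 2 and 1 for AN from P0 to 1 W, 3 W and 5 W, 1 each from 1 W to 3 W, and 0 for AN from 3 W to 5 W. The cause of these shifts was not tested, except that a fold limit removes smaller changes by construction. The recounts stand without the share of all tested probes, so they show only how the calls moved.

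Leaving out each of the 24 arrays in turn, the counts ran from 0 to 1 for AN against EN at 3 W, 2 to 4 on average, 2 to 4, 5 to 6 and 4 to 5 for EN from P0 to 1 W, 3 W and 5 W, 0 to 1, 4 to 5 and 3 to 4 for AN from P0 to 1 W, 3 W and 5 W, 1 to 3 for EN and for AN from 1 W to 3 W, and 0 to 2 for AN from 3 W to 5 W, and were 0 throughout in the other 7 comparisons. The second Notch2 probe gave the other sign for AN minus EN on average (0.91) and AN from P0 to 3 W (-0.29), but was above background on 1 of 12 EN arrays, 1 of 3 AN arrays at P0 and 0 of 3 at 3 W, so neither is a measured reversal. Over 42 single-gene results, 352 of 415 values under the other alternatives and 939 of 1008 with an array left out kept their direction and side of the threshold.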
